A study of Mus musculus with 8 samples.

Results

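The readers of N6-methyladenosine (m6A) are proteins that bind methylated RNA, and the peaks on the mRNAs of 9 such proteins are described here in bone marrow-derived macrophages (BMDMs). The 9 genes were *Ythdf1*, *Ythdf2*, *Ythdf3*, *Ythdc1*, *Ythdc2*, *Igf2bp1*, *Igf2bp2*, *Igf2bp3* and *Fmr1*, chosen by name from the 21951 protein-coding genes of GENCODE M21 because their products are known or proposed m6A readers. A peak belonged to a gene when that gene had the largest exon overlap with it on the same strand (GRCm38). Of the 9 genes, 6 had a peak in at least 1 list, against 32.1% of all protein-coding genes (7055 of 21951).

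BMDMs were grown for 7 days with M-CSF at 40 ng/mL from the marrow of C57BL/6 mice aged 8 weeks, 2 of them WT (*Mettl3* fl/flLyz2+/+) and 2 of them KO (*Mettl3* fl/flLyz2 cre/+). All 4 mice thus carried the floxed alleles, and Cre was driven by *Lyz2*, a gene active in macrophages, monocytes and granulocytes, so that *Mettl3*, which encodes the catalytic subunit of the m6A writer complex, was to be deleted in myeloid cells of KO mice. RNA bound by an m6A antibody (IP) and input RNA were sequenced for each mouse (MeRIP-Seq, 8 libraries), and stretches enriched in the IP were called as peaks, which gave a list for each of the mice. The WT lists held 6159 (WT-1) and 6263 (WT-2) peaks and the KO lists 6378 (KO-1) and 6684 (KO-2), with no read counts, so the depth was unknown and the presence of peaks was compared, not their level.

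m6A is placed on adenosines of nascent mRNA, mostly in long internal exons and around the stop codon, and much of it lies in short sequences such as GGAC. Its readers fall into YTH proteins, whose YTH domain holds the methylated base in a pocket, and other RNA-binding proteins, among them the IGF2BP proteins and FMRP. Through them a methylated mRNA can be translated, spliced, exported, stabilised or degraded, and in macrophages such control is known to bear on inflammatory genes.

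The YTHDF proteins are the cytoplasmic YTH readers. *Ythdf2*, whose product brings deadenylases to methylated mRNAs and speeds their decay, had 2 peaks in each of the 4 lists. *Ythdf3*, whose product acts in translation and decay together with its paralogs, had 3 peaks in each KO list, whereas WT-1 had 2 and WT-2 had 1. *Ythdf1*, known for promoting translation of methylated mRNAs, had 1 peak in each WT list, 1 in KO-1 and 0 in KO-2. *Ythdf2* and *Ythdf3* were thus found in every mouse, while *Ythdf1* was missing from a single KO list.

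The YTHDC proteins differ in place and function. *Ythdc1* encodes the nuclear reader, which acts in splicing and export of methylated mRNAs, and it had 2 peaks in each of the 4 lists. *Ythdc2* encodes an RNA helicase with a YTH domain that is needed for meiosis in the germ line, and it had 0 peaks in each list. Its chromosome was represented in the lists, with 180 (WT-1) and 199 (WT-2) peaks in WT and 210 (KO-1) and 197 (KO-2) peaks in KO BMDMs. The input values of *Ythdc2* were not analysed here, so a transcript without m6A and a transcript that was hardly expressed cannot be told apart, and the same holds for every reader without a peak.

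Among the other readers, the IGF2BP proteins bind methylated mRNAs through KH domains and stabilise them. *Igf2bp2* had 1 peak in each KO list and 0 in each WT list. *Igf2bp1* and *Igf2bp3*, which are best known from embryonic tissues and tumours, had 0 peaks in each list. *Fmr1* encodes FMRP, a repressor of translation best known from neurons, and it had 1 peak in KO-2 and 0 in the other lists. *Igf2bp2* was therefore the only reader gene with a peak in each KO list and none in WT, and *Fmr1* rested on a single KO mouse.

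**Figure D1:**
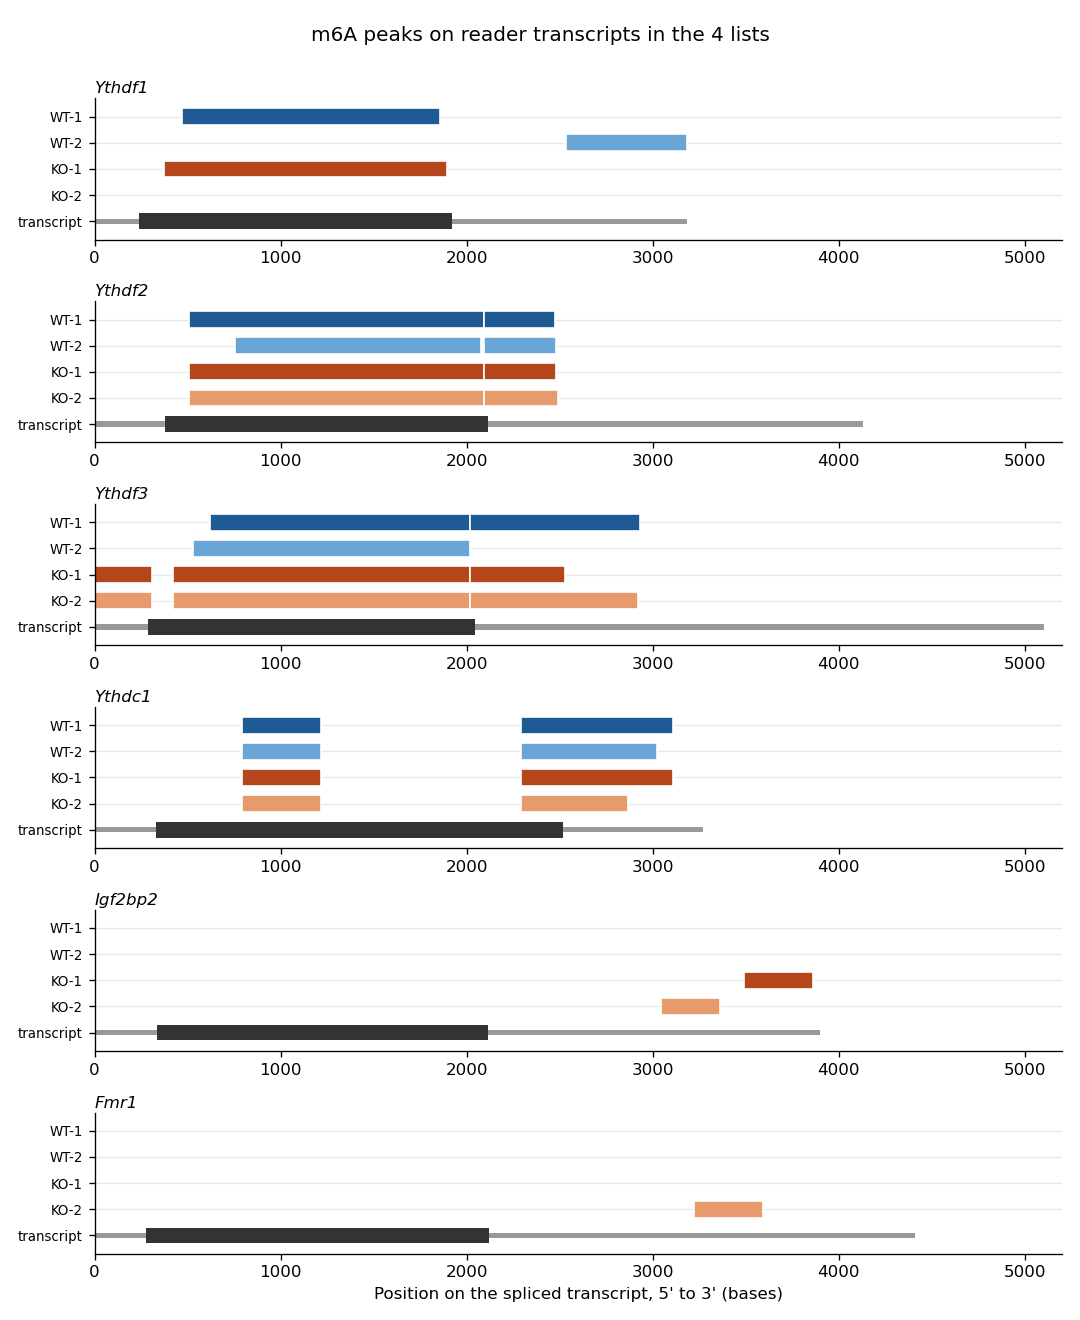
Peaks of the 4 lists on the spliced transcripts of the 6 reader genes with a peak, drawn in bases from the 5′ end, with the coding sequence as the thick dark bar and the UTRs as the thin grey bar. Blue bars are WT peaks, orange bars are KO peaks, each list has a row of its own, and adjoining peaks of 1 list are parted by a white line. *Ythdf2* and *Ythdc1* carried 2 peaks in each list at matching places, whereas the *Igf2bp2* peaks of KO-1 and KO-2 lay apart.

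A peak in all 4 lists was found on 3 of the 9 genes, *Ythdf2*, *Ythdf3* and *Ythdc1*, which is 3 of the 6 with any peak. Among all 7055 genes with a peak, 30.4% had one in all 4 lists. The pattern of these 3 genes was shared by 2144 other genes. No reader gene had the WT-only pattern, a peak in each WT list with none in KO, and among all genes with a peak its share was 3.84%. The KO-only pattern, the reverse, was that of *Igf2bp2* alone, against 4.88% of all genes with a peak, and 343 other genes shared it. This count of 1 was 0 with the lower-scored 50% of each list left out, and 0 when the peaks of both mice had to overlap, an alternative chosen after seeing the data. *Ythdf1* shared its pattern, absent from KO-2 alone, with 205 other genes. *Fmr1* shared its pattern, present in KO-2 alone, with 542 other genes. Without KO replicate 1, when the KO side rested on KO-2 alone, *Ythdf1* had the WT-only pattern and *Fmr1* joined *Igf2bp2* with the KO-only pattern, which gave 1 and 2 genes. With 6 genes behind them, these counts are a description and do not set the readers apart from other genes.

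The reader genes together carried 9 peaks in each KO list, 7 in WT-1 and 6 in WT-2. WT lists averaged 6.5 ± 0.707 reader peaks (SD, n = 2) and KO lists 9 ± 0 (SD, n = 2), a difference of 2.5 peaks per list, which was 1.5 with the lower-scored 50% of each list left out. Over all genes, 5991 and 6091 peaks were assigned in WT and 6187 and 6484 in KO BMDMs, and KO exceeded WT by 294.5 peaks per list. KO lists thus had more peaks on the readers and on all genes. With an equal number of top peaks taken from each list, the reader difference was again 2.5. Per gene, *Ythdf3* and *Igf2bp2* had more peaks in each KO list than in each WT list, as did 569 genes (8.07%) in all, while 386 genes (5.47%) had more in each WT list. The exact permutation test (two-sided, 6 labellings) gave p = 0.333 for *Ythdf3* and for *Igf2bp2*, which is the smallest p that 2 mice against 2 allow. It gave p = 1 for the other 7 reader genes (exact permutation). A design of this size cannot show a change for a single gene, so the values are a description.

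The exon 4 peaks on *Ythdf1*, *Ythdf2* and *Ythdf3* followed a gene structure that the paralogs share. Each has 5 exons on the transcript used here, and exon 4 holds nearly the whole coding sequence. This exon is 1521 bp long in *Ythdf1*, with 90.5% of the CDS. In *Ythdf2* it is 1584 bp long, with 91.0% of the CDS, and in *Ythdf3* it is 1599 bp long, also with 91.0%. The last exon then adds 27, 24 and 24 coding bases before the 3′-UTR begins.

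On *Ythdf2*, exon 4 (chr4:132204132-132205715, minus strand) was covered from end to end in WT-1 and KO-1. In KO-2 the peak spanned 1583 of its 1584 bp, and in WT-2 it spanned 1322 bp (chr4:132204147-132205468). The score of the caller for this peak was 2119 in WT-1, 2352 in KO-1 and 3100 in the replicate 2 lists of both genotypes. A score of 3100 was a ceiling that few peaks exceeded, and scores were not compared between lists. They ran from a lowest value of 50.05 to a highest of 3233.06 over the lists. The other *Ythdf2* peak began at the first base of exon 5 in each list and ran over the stop codon into the 3′-UTR (chr4:132186552-132186947). It was 381 bp (WT-1) and 389 bp (WT-2) wide in WT and 387 bp (KO-1) and 396 bp (KO-2) in KO BMDMs, so its width differed little between mice. On the spliced mRNA, the exon 4 and exon 5 peaks adjoined in 3 of the 4 lists, with WT-2 as the exception.

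*Ythdf3* had the same pair of peaks and a further one. Its exon 4 (chr3:16203826-16205424, plus strand) was covered from end to end in KO-1 and KO-2, over 1488 bp in WT-2 and over 1400 bp in WT-1, each with a score of 3100. The peak over the stop codon and 3′-UTR in exon 5 (chr3:16213955-16214866) was missing from WT-2 and found in the other lists. Its score was 909 in WT-1, 2884 in KO-1 and 3048 in KO-2. The further peak lay on exon 1 and the 5′-UTR (chr3:16183183-16183520), at the same bases in KO-1 and KO-2, with scores of 1671 and 993. It began 29 bp before the annotated start of the gene. This region was the only one of the 12 on reader genes with the KO-only pattern, which was seen in 6.19% of all 12350 regions.

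*Ythdf1* was the least regular of the paralogs. Exon 4 (chr2:180910687-180912207, minus strand) was covered from end to end in KO-1, with a score of 429.6, and over 1387 bp in WT-1, with a score of 90.9. The latter score was low for its list, where 5.08% of the peaks scored as low or lower. WT-2 had its peak elsewhere, on the last 649 bp of the 3′-UTR (chr2:180904377-180905025), with a score of 1842. The WT peaks of *Ythdf1* therefore shared no base, and no region of this gene had a peak in more than 2 lists.

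*Ythdc1* had a pair of peaks that began at the same bases in each mouse. Its exon 4, a coding exon of 427 bp (chr5:86816907-86817333, plus strand), was called from its first to its last base in each of the 4 lists, with a score of 3100 each time. The last exon, exon 17, carried a peak from its first base over the stop codon into the 3′-UTR (chr5:86835684-86836498). This peak was 815 bp wide in WT-1 and KO-1, 731 bp in WT-2 and 573 bp in KO-2, again with a score of 3100 in each list. All 8 *Ythdc1* peaks thus stood at the ceiling of the score.

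The remaining reader peaks lay inside 3′-UTRs, away from exon edges and stop codons. On *Igf2bp2* (minus strand), KO-1 had a peak at chr16:22059047-22059418 with a score of 110.04 and KO-2 had one at chr16:22059544-22059865 with a score of 1637. These peaks shared 0 bp and were parted by 125 bp. In the KO-1 list, 8.12% of the peaks scored as low as its *Igf2bp2* peak or lower. The *Fmr1* peak of KO-2 (chrX:68716775-68717146, plus strand) had a score of 158, and 11.9% of the peaks in that list scored as low or lower.

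Merged over the lists, the reader peaks formed 12 regions. Peaks of all 4 lists met in 5 of them, peaks of 3 lists in 1 and peaks of 2 lists in 2, and the other 4 came from 1 list. Over all genes, 17.8% of the 12350 regions had a peak in all 4 lists. The 5 regions were the exon 4 and stop codon regions of *Ythdf2*, exon 4 of *Ythdf3*, and exons 4 and 17 of *Ythdc1*. Peaks per gene over the 4 lists numbered 8 for *Ythdf2*, 9 for *Ythdf3* and 8 for *Ythdc1*. The median was 6 over the 2147 genes with a peak in all 4 lists. Of those 2147 genes, 641 had at least 8 peaks and 430 at least 9, so such numbers were common.

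By the position of their midpoints, 14 of the 31 reader peaks lay in the CDS, 15 in the 3′-UTR and 2 in the 5′-UTR. The CDS share was 45.2% (Wilson 95% interval 29.2% to 62.2%), and it was 48.7% (48.0% to 49.3%) over the 22920 assigned peaks of all genes whose midpoint fell on an exon of the transcript used. Per list it was 57.1% (WT-1, 4 of 7 peaks) and 50% (WT-2, 3 of 6) in WT and 44.4% (KO-1, 4 of 9) and 33.3% (KO-2, 3 of 9) in KO BMDMs. For the peaks of all genes it was 47.0% (WT-1) and 45.5% (WT-2) in WT and 52.2% (KO-1) and 49.96% (KO-2) in KO BMDMs, so the order of the genotypes was the opposite of that in the readers, and this difference was not tested. The stop codon was covered by 11 of 31 reader peaks (35.5%, Wilson 95% interval 21.1% to 53.1%), beside 35.7% of the same 22920 peaks. Intervals cover counting error only, because peaks of 1 gene in 4 mice share their target. By these counts of peaks the share of the readers lay close to that of all genes. Counted over every exonic base of the peaks, 69.0% lay in the CDS for the readers and 52.6% for all genes, a count in which wide peaks weigh more.

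Reader peaks were wide and high in score. Their median width was 649 bp, beside 507 bp over all assigned peaks, and 10 of 31 (32.3%) were at least 1300 bp wide, beside 9.17%. These 10 were the exon 4 peaks of the YTHDF genes. A score of 3100 was held by 44.4% to 66.7% of the reader peaks of a list and by 9.83% to 18.7% of all assigned peaks of a list. Among all peaks of at least 1300 bp, pooled over the lists, the share was 43.3%. An edge of the peak fell on an edge of an exon in 26 of 31 reader peaks (83.9%), against 44.8% of all peaks and 57.7% of all peaks of at least 1300 bp. The 31 peaks come from 6 genes, so these shares describe *Ythdf2*, *Ythdf3* and *Ythdc1* most of all.

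The sequence of each peak on the transcript strand was searched for GGAC, in which the adenosine is the base that can be methylated. GGAC was found in 28 of 31 reader peaks (90.3%, Wilson 95% interval 75.1% to 96.7%), beside 87.8% (87.4% to 88.2%) of all assigned peaks, which were narrower. The 3 peaks without it were those on exon 5 of *Ythdf3*. Per kb, reader peaks held 5.01 GGAC and all assigned peaks 4.72. A match shows the letters only, and single methylated bases were not resolved.

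Set against the rest of the same transcript, GGAC was denser in the peaks of the YTHDF genes and sparser in those of the other readers. *Ythdf2* had 7.07 GGAC per kb inside its peaks and 2.33 outside. *Ythdf3* had 3.90 inside and 1.31 outside, and *Ythdf1* had 5.07 inside and 2.96 outside. In *Ythdc1* the order was turned, with 2.42 inside and 4.93 outside. *Igf2bp2* had 2.88 inside and 4.06 outside, and *Fmr1* had 2.69 inside and 2.97 outside, each with few GGAC inside (2 and 1). The 6 genes together had 4.53 inside and 3.13 outside, a ratio of 1.45, and all genes with a peak had 4.57 and 3.81, a ratio of 1.20. Of the transcripts without a peak, *Igf2bp1* had 4.18 GGAC per kb over its whole length, *Igf2bp3* 3.45 and *Ythdc2* 1.80.

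Exon 4 held 10 GGAC in *Ythdf1*, 11 in *Ythdf2* and 8 in *Ythdf3*. Peaks of all 4 lists covered 10 of the 11 in *Ythdf2* and 7 of the 8 in *Ythdf3*, while the 10 of *Ythdf1* were covered in WT-1 and KO-1 alone. The whole coding sequences, not exon 4 alone, were aligned codon by codon. Of the aligned bases, 67.3% were identical between *Ythdf1* and *Ythdf2*, 69.4% between *Ythdf1* and *Ythdf3* and 70.6% between *Ythdf2* and *Ythdf3*. *Ythdf1* and *Ythdf2* had 5 GGAC at the same aligned bases, *Ythdf2* and *Ythdf3* 5, and *Ythdf1* and *Ythdf3* 2. The paralogs thus share the exon that carried the peaks, but most of its GGAC are not common to all 3 genes.

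**Figure D2:**
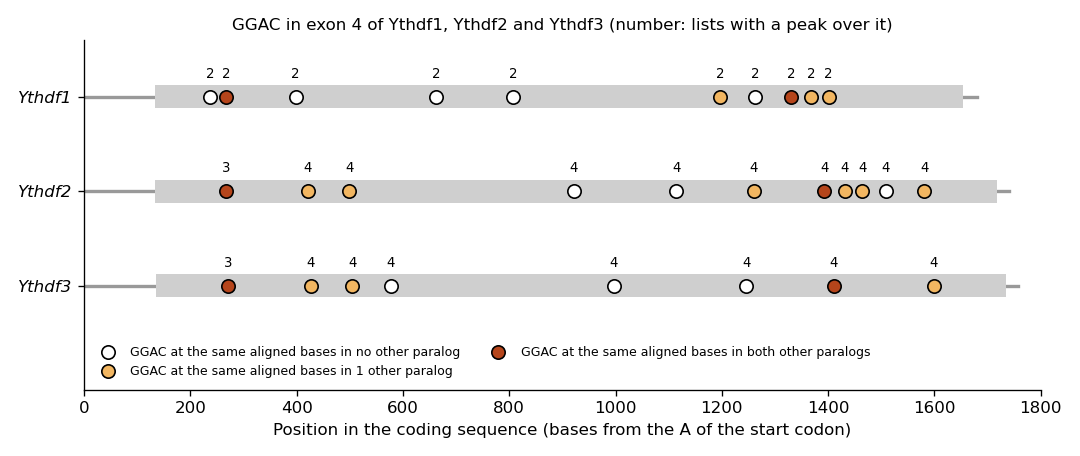
GGAC in exon 4 (grey bar) of *Ythdf1*, *Ythdf2* and *Ythdf3*, by position in the coding sequence in bases, with the number of lists whose peak covers each GGAC above it. The fill gives how many of the other paralogs have GGAC at the same aligned bases, and 2 sites in each gene are filled as present in both.

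GGAC stood at 2 places in all 3 paralogs. The first is at codon 90 of *Ythdf1* (chr2:180912054-180912087, minus strand), codon 90 of *Ythdf2* (chr4:132205562-132205595, minus strand) and codon 91 of *Ythdf3* (chr3:16203946-16203979, plus strand), shown with 15 bases on each side and GGAC in capitals. The GRCm38 sequence reads as follows, and its surroundings differ between the genes at several bases.
Ythdf1: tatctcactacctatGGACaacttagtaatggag
Ythdf2: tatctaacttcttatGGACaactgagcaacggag
Ythdf3: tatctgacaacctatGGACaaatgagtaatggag
In *Ythdf2* this site was covered in each list but WT-2, and in *Ythdf3* in each list but WT-1.

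The second shared place is at codon 444 of *Ythdf1*, codon 465 of *Ythdf2* and codon 471 of *Ythdf3*. A stretch of 105 coding bases that begins 15 bases before this GGAC is shown because *Ythdf1* and *Ythdf2* have 3 GGAC in it at the same places and *Ythdf3* has 1. It lies at chr2:180910921-180911025 in *Ythdf1*, chr4:132204366-132204470 in *Ythdf2* and chr3:16205086-16205190 in *Ythdf3*, and GGAC is in capitals.
Ythdf1: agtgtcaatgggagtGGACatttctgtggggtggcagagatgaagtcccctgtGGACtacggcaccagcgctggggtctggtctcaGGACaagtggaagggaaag
Ythdf2: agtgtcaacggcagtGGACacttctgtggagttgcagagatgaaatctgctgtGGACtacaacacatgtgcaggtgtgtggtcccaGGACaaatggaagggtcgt
Ythdf3: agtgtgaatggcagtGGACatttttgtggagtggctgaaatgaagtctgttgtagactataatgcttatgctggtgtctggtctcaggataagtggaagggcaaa
Of these 105 bases, 83 were identical between *Ythdf1* and *Ythdf2*, 82 between *Ythdf1* and *Ythdf3* and 81 between *Ythdf2* and *Ythdf3*. Each list had a peak over the whole stretch in *Ythdf2* and in *Ythdf3*, with 3 and 1 GGAC.

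Near the stop codon, GGAC was found in *Ythdf2* and *Ythdc1* and in none of the exon 5 peaks of *Ythdf3*. Exon 5 of *Ythdf2* held 3 GGAC in the bases that all 4 lists shared, at 54, 80 and 161 bases past the stop codon. They are given in that order with 12 bases on each side, at chr4:132186857-132186884, chr4:132186831-132186858 and chr4:132186750-132186777 (minus strand).
Ythdf2, 54 bases past: cttatcctaagaGGACacgatgacctgc
Ythdf2, 80 bases past: gcaagaaaattaGGACtttttttcttaa
Ythdf2, 161 bases past: acaaaagacataGGACttaactggaaaa
*Ythdc1* held fewer GGAC for the length of its peaks, with 1 in exon 4 (chr5:86817161-86817188), 1 at the end of the CDS in exon 17 (chr5:86835857-86835884) and 1 in the 3′-UTR (chr5:86836221-86836248). They are shown in the same way on the plus strand, and each was covered in all 4 lists.
Ythdc1 exon 4: agaagaggatgaGGACgaggatgaagag
Ythdc1 exon 17, CDS: aatatgtgatcgGGACagagaccgaggg
Ythdc1 exon 17, 3′-UTR: tgttctccttttGGACcttggtcaataa

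The single-mouse peaks each held 1 GGAC. Those of *Ythdf1* (WT-2, chr2:180904423-180904450), *Igf2bp2* (KO-1, chr16:22059256-22059283, and KO-2, chr16:22059628-22059655) and *Fmr1* (KO-2, chrX:68716945-68716972) are shown with 12 bases on each side, on the strand of the gene, all within the 3′-UTR. The pair in *Igf2bp2* lies in separate peaks, so no GGAC of this gene was covered in both KO mice.
Ythdf1 in WT-2: gtacggagtcgtGGACaacatcggatac
Igf2bp2 in KO-1: tggccttcttgtGGACaaacctaaaaat
Igf2bp2 in KO-2: caaagaaagaatGGACtctctctccatc
Fmr1 in KO-2: aaaatatgtgaaGGACcttcactctgag
The exon 1 peak of *Ythdf3*, found in both KO mice, held 4 GGAC, of which a pair stood close together in the 5′-UTR (chr3:16183273-16183300 and chr3:16183283-16183310, plus strand).
Ythdf3 exon 1, first of the pair: ccgaggatcggaGGACgagcggggacga
Ythdf3 exon 1, second of the pair: gaggacgagcggGGACgagcagtgtgca

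The proteins that write, erase and otherwise bind m6A give the setting in which the readers act. Of 14 writer and eraser genes, 10 had a peak and 6 had one in all 4 lists. Over all protein-coding genes 32.1% had a peak, and 30.4% of those had one in all 4 lists. These 6 were *Wtap*, *Virma*, *Rbm15*, *Rbm15b* and *Zc3h13*, which encode subunits of the writer complex, and *Alkbh5*, which encodes a demethylase. *Zc3h13* had the most peaks of these, with 4 in each WT list and 5 in each KO list. *Mettl3* itself had 0 peaks in each list, so the lists give no check of the deletion.

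Of 10 other proposed m6A-binding proteins, 7 had a peak, against 32.1% of all protein-coding genes. Among all genes with a peak, 30.4% had one in all 4 lists. *Prrc2a* (2 peaks in each list) and *Eif3a* (3 peaks in each list) had peaks in all 4 lists, as *Ythdf2* and *Ythdc1* did. *Hnrnpc* encodes a nuclear protein that binds RNA where m6A opens its structure. It had 2 peaks in WT-1, 1 in WT-2 and 0 in both KO lists. That WT-only pattern was seen in 3.84% of all genes with a peak. Of 16 genes for partners of the readers, 9 had a peak, beside the same 32.1% of all protein-coding genes. *Cpsf6* and *Matr3* had one in all 4 lists, beside the 30.4% above. None of the partner genes had the WT-only or the KO-only pattern, which 3.84% and 4.88% of all genes with a peak had. With 9 genes behind it, this is a description and does not set the partners apart from other genes.

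Macrophage markers were used to check the labelled cell type, as far as peaks allow. Of 10 markers, 4 had a peak, against 32.1% of all protein-coding genes. *Mertk* had 1 peak in each list, and 30.4% of all genes with a peak had one in all 4 lists. *Fcgr1* had 1 peak in WT-1, 2 in WT-2 and 0 in both KO lists, a pattern of 3.84% of all genes with a peak. The defining markers *Csf1r*, *Adgre1*, *Itgam*, *Cd68*, *Lyz2* and *Spi1* had 0 peaks, which does not measure their expression. Of 8 markers of other marrow cells, only *Siglech* had a peak, 1 in KO-1. The lists therefore neither establish nor contradict the cell type, and the part of other cells in the reader peaks was not tested.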

How the data were processed

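Peaks were called by the authors for each mouse, and the value of each peak in the deposited lists is a score of the peak caller, which was not compared between lists. The submitters' processing notes name cutadapt 1.9.3, HISAT2 2.0.4 and mm10. The names of the peaks begin with MACS, and the caller's settings are not given in the sources used here. Peak starts were counted from 0, since 1590 to 2126 starts per list then fell on exon starts and otherwise 17 to 25, and 1 was added. Between 97.0% and 97.3% of the peaks were assigned to a gene of GENCODE M21. The longest spliced coding transcript gave the feature of a peak, and the stop codon was counted as CDS. Same-strand peaks that shared 1 bp or more formed a region. The members and lists were chosen with earlier results of these data known. All reader genes are named, and of the other lists those with a peak in all 4 lists or in both lists of 1 genotype and neither of the other, besides *Mettl3*, *Siglech* and the marker genes without a peak. Sequences were read from GRCm38. Alternatives covered scores, gene assignment, overlap, transcript, motif, a replicate block and each list left out. The assignment was checked on simulated peaks, planted only where a single gene had an exon on that strand. That check could not test peaks on overlapping genes. The tools were scipy 1.17.1, Biopython 1.88, pysam 0.24.0, matplotlib 3.10.9 and numpy 2.4.6 under Python 3.11.15.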

Additional observations from a re-analysis of the deposited data

How the results depend on the processing

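Of 59 alternatives over 7 results, 49 kept the value, which for a count means within 1.5 times and for a share or a difference within 1 SD of the lists. Reader genes with a peak in all 4 lists stayed at 3, or 4 with *Ythdf1* when KO replicate 2 was left out, and their regions in all 4 lists at 5 or 6. Reader genes with the KO-only pattern numbered 0 with the lower-scored 50% of peaks left out, 0 when the peaks of a genotype had to overlap (chosen after seeing the data) and 1 to 2 when each list was left out, the latter without KO replicate 1, when *Fmr1* joined *Igf2bp2*. Those with the WT-only pattern numbered 0 to 1 when each list was left out, the latter being *Ythdf1* without KO replicate 1. The difference of 2.5 reader peaks per list was 1.5 with the lower-scored 50% of peaks left out, a set with fewer peaks by its making, and 2 to 3 when each list was left out. The CDS share of 45.2% was 69.0% when every exonic base was counted, which gives wide peaks more weight. The GGAC share of 90.3% was 71.0% in the central 200 bp and 100% for DRACH, a shorter window and a looser motif by construction. Exons of protein-coding transcripts only, also chosen after seeing the data, left the all-list count, the KO-only count and the difference as they were.

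The replicate numbers are not known to pair the mice. The correlation over 7055 genes between WT-1 minus WT-2 and KO-1 minus KO-2 was -0.00204. The replicate block calls a gene when at least 1 same-numbered pair shows the direction and none the reverse. With it, 1 reader gene (*Ythdf1*) was called towards WT and 2 (*Igf2bp2* and *Fmr1*) towards KO, and the difference was 2.5. The *Ythdf1* and *Fmr1* calls came from the replicate 2 pair alone. The depth of the libraries was unknown, so a missing peak may reflect low coverage, which was not tested.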

Other observations

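WT-1 had a peak at chr6:49084503-49084831 (plus strand) with a score of 1658, which lay 391 bp beyond the 3′ end of *Igf2bp3*. *Igf2bp3* is on the minus strand, and the peak was assigned to *Malsu1*, a gene for a mitochondrial ribosome assembly factor on the plus strand. It is named because of its place and was chosen after its value was seen.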
